A study of Mus musculus and Homo sapiens with 12 samples.

Results

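Lysosomes are acidic organelles that break down protein, lipid and sugar polymers. Here 33 lysosomal genes were followed in EMT6, a mouse mammary carcinoma line, across 3 wild-type and 3 PFKFB4-knockout libraries. The genes were taken from a fixed list of names: 15 genes of the proton pump and its accessory proteins, 11 genes of hydrolases and other luminal proteins, and 7 genes of membrane proteins. All 33 were found among the 54331 gene identifiers of the table, and all 33 passed the filter on low values, so none is missing from the counts below.

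The study measured poly(A) RNA from wild-type and knockout cells of EMT6 and of the human line MDA-MB-231, and asked which transcripts differ once PFKFB4, a bifunctional enzyme that tunes glycolysis, is deleted. EMT6 cells of both genotypes were kept in high-glucose DMEM with serum and received no other treatment. The labels give neither the way in which the gene was disrupted nor the number of clones, and the code A7 on the knockout columns is not explained. The table of MDA-MB-231 lists identifiers without gene names and was not used here. The libraries are labelled as biological replicates, and nothing says that they came from separate cultures, so every p-value measures the spread between these libraries.

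Values are TPM, a share of all transcripts corrected for transcript length, so levels can be compared between genes. How many reads stand behind a value is not known. Between 11871 and 12426 genes reached 1 TPM in a library. Among markers of the line, Krt8 stood at 482 TPM and Vim at 2711 TPM in wild type, while the epithelial genes Epcam and Cdh1 stayed under 0.3 TPM in every library. Of the 8 tested markers of the line, 3 were called higher in the knockout (37.5%) and 5 lower (62.5%), against 14.5% and 42.3% of all tested genes. The lowest was Krt14, named after its values were seen, which went from 36.5 to 3.94 TPM (log2 fold change -2.92, adjusted p = 1.06e-05). The part of this difference in the lysosomal genes was not tested. The Pfkfb4 transcript was at 10.2, 10.5 and 10.4 TPM in wild type and at 6.96, 6.87 and 8.24 TPM in the knockout (limma adjusted p = 0.00487, and 0.0695 under median-ratio scaling). This gene-level value does not show which part of the gene was changed.

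By way of background, the vacuolar proton pump is a rotary machine. Its cytosolic sector V1 splits ATP, and its membrane sector V0 moves protons into the lysosome through a ring of small proteolipid subunits. The acid pH activates cathepsins and glycosidases, which reach the lysosome mostly through mannose 6-phosphate receptors, while heavily glycosylated membrane proteins line the organelle and channels and cholesterol carriers let its products out. Many of these genes carry a promoter element with the core CACGTG that is bound by the transcription factors TFEB, TFE3 and MITF. The pump also takes part in the sensing of amino acids by mTORC1.

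Most of the pump, hydrolase and membrane genes that changed were higher in the knockout, and the pump and the membrane proteins each had calls in both directions. Of the 33 genes, 18 were called higher and 5 lower by limma (adjusted p under 0.05 over all genes tested), and 10 were not called. Over all 13499 genes tested, 14.5% were called higher and 42.3% lower. The median log2 fold change was 0.35 for the 33 genes and -0.21 for all tested genes. Every knockout library lay above every wild-type library for 19 of the genes and below for 6, against 17.9% and 48.3% of all tested genes. The genes were chosen with earlier results of these data known, so these shares describe the list and test nothing.

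The same list was read under 2 other treatments of the values. Median-ratio scaling, which sets the typical gene to no change, moved the median of all tested genes from -0.21 to -0.01. It gave 27 genes higher and 2 lower, against 27.1% and 24.7% of all tested genes. Removal of the trend on exon length gave 24 higher and 2 lower, against 23.2% and 26.6%. All 18 genes called higher in TPM were also called higher in both of these settings. Of the 5 called lower, Atp6v0a1 and Npc1 were lower under median-ratio scaling, and Atp6v0a1 alone was lower in all 3 settings. These genes are abundant, and abundant genes were more often called higher. Among the 4452 tested genes whose mean reached 20 TPM, 24.8% were called higher and 37.1% lower, against 18 and 3 of the 28 listed genes at that level. Under median-ratio scaling these shares were 46.2% and 18.2%, against 25 and 0 of the 28. With the length trend removed they were 36.0% and 24.9% of 4449 genes, against 22 and 1 of the 28.

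**Figure D1:**
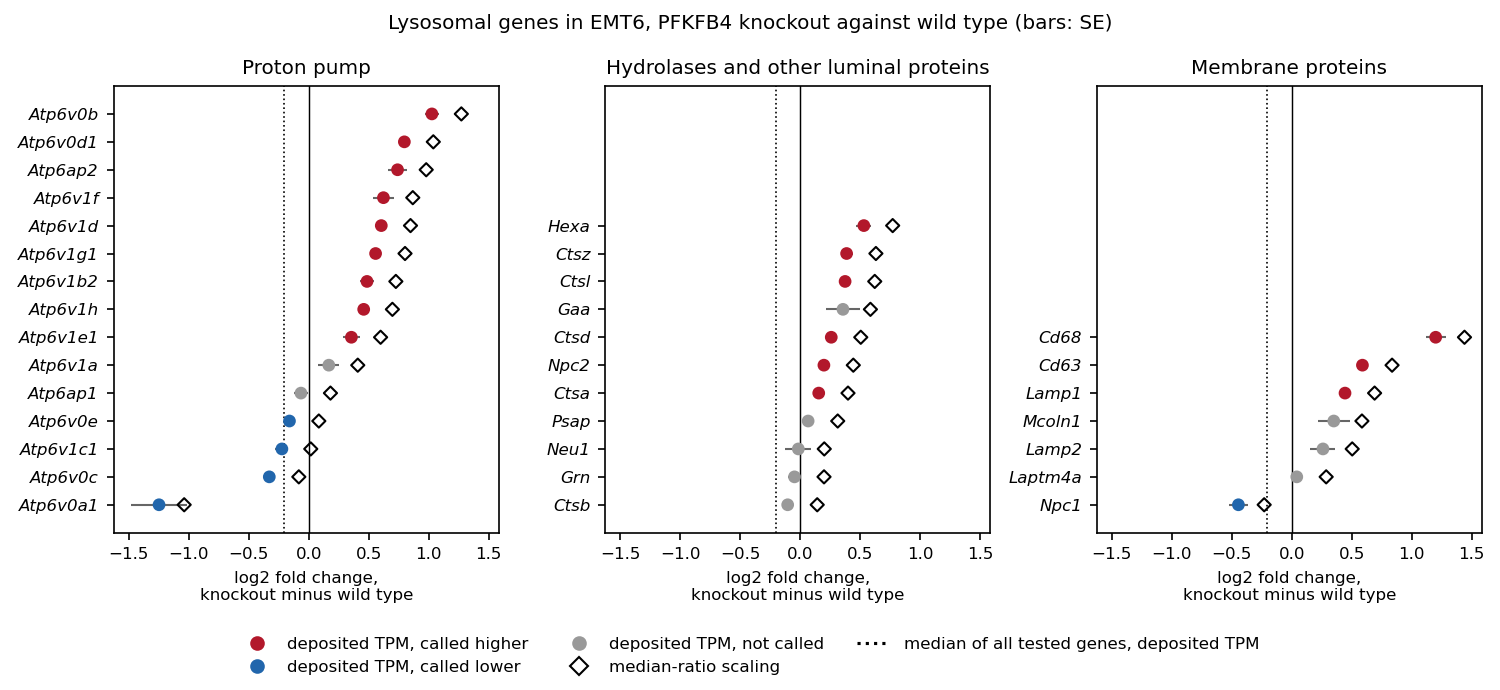
Log2 fold change of each gene, knockout minus wild type, on the log2(TPM + 1) scale. Filled points are deposited TPM with the SE, coloured by call, and open diamonds are median-ratio scaling. The pump panel runs from -1.25 for Atp6v0a1 to 1.03 for Atp6v0b, no hydrolase or luminal gene is called lower, and each diamond lies to the right of its point.

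Promoter sequence was available for 27 of the 33 genes, from RefSeq on GRCm38.p6, as windows of 250 bases before to 50 after each start site. The letters CACGTG, searched on both strands, were found for 10 of the 27 (37.0%), against 8.09% of all 27025 genes in the table, 11.9% of the 9129 tested genes with a window and 22 of 89 genes (24.7%) of the other lysosomal lists described further on. The longer form TCACGTG, which always contains the shorter one, was found for 9 (33.3%), against 4.29% of all genes, 7.15% of the tested genes and 22.5% of the other lists. By class, the longer form was present for 4 of 11 pump genes, 3 of 10 luminal genes and 2 of 6 membrane genes. At least 2 copies of the core in 1 window were found for 5 of the genes, among 0.594% of all windows. The stretches below show the pump gene with the largest rise (Atp6v0b, 2 copies), the most abundant transcript of the list (Ctsl), 3 further luminal genes and the catalytic pump subunit, all upstream of the start site, with the core in capitals. They lie at chr4:117887330-117887385 (minus strand), chr13:64370731-64370770 (minus), chr7:142387900-142387945 (minus), chr2:164833741-164833772 (plus), chr11:119267803-119267848 (plus) and chr16:44139365-44139410 (minus), each written 5′ to 3′ on the strand of the gene.
Atp6v0b: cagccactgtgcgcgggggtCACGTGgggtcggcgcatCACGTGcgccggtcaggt
Ctsl: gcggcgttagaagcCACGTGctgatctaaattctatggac
Ctsd: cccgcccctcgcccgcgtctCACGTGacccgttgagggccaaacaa
Ctsa: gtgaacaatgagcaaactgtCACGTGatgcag
Gaa: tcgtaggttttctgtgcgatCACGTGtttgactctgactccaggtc
Atp6v1a: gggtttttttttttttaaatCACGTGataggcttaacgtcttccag

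In these stretches the longer form is present for each gene except Ctsl. The stretch of Ctsa lies inside the annotated gene, before a later start site. The window at the annotated start of Ctsa (chr2:164832622-164832921) held no core. Lamp1 held 4 cores in its window, a number that 8 of the 32851 windows reach, and Mcoln1 held 2. The core was found for 6 of 15 genes called higher, 1 of 3 called lower and 3 of 9 not called. Among all 9129 tested genes with a window, 17.5% of those with CACGTG were called higher and 37.3% lower, against 15.1% and 45.9% of those without it. A match of letters is a description of the window and does not show that a factor binds there.

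The membrane sector V0 held both the largest rise and the largest fall of the pump. Atp6v0b, which encodes a proteolipid of the rotating ring (ENSMUSG00000033379, chromosome 4, 117884326 to 117887333 on GRCm38), was at 82.7, 88.4 and 88.7 TPM in wild type and at 177, 166 and 190 TPM in the knockout. Its mean rose from 86.6 ± 3.4 to 178 ± 11.7 TPM (SD, n = 3 each). The log2 fold change was 1.03, with an SE of 0.06 (adjusted p = 0.00018), and the groups were far apart. Atp6v0d1 encodes the stalk subunit that joins the ring to V1. It stood at 29.7, 31.1 and 32.1 TPM in wild type and at 54.3, 53.7 and 55.7 TPM in knockout cells, a log2 fold change of 0.80 ± 0.05 (adjusted p = 0.000169). Each knockout library of these 2 genes exceeded each wild-type library.

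Atp6v0a1, 1 of the paralogous genes for the large membrane subunit a (chromosome 11, 101009452 to 101063719), fell. It was at 10.8, 9.79 and 9.97 TPM in wild type and at 2.22, 4.82 and 4.54 TPM in knockout cells, a log2 fold change of -1.25 ± 0.23 (adjusted p = 0.00575). The first knockout library was lowest, and with each library left out in turn the log2 fold change ran from -1.40 to -0.98 and stayed called.

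Atp6v0c, the main proteolipid of the ring, was the most abundant pump transcript in wild type. It was at 180, 193 and 200 TPM there and at 155, 148 and 153 TPM in knockout cells, a log2 fold change of -0.33 ± 0.05 (adjusted p = 0.00278), but -0.08 under median-ratio scaling (adjusted p = 0.29). The annotated processed pseudogene Atp6v0c-ps2 was listed at 193 TPM in wild type and at 133 TPM in knockout cells, so reads may have been divided between the copies and the level of Atp6v0c is uncertain. Atp6v0e encodes a small subunit at the edge of the sector. It was at 90.1, 95.7 and 92 TPM in wild type and at 82.7, 81 and 84.4 TPM in knockout cells, a log2 fold change of -0.16 (adjusted p = 0.0164) that turned to 0.08 under median-ratio scaling and to 0.03 after removal of the length trend.

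As listed, the order of the ring subunits changed between the genotypes. In wild type the level of Atp6v0b was 0.459, 0.459 and 0.443 of that of Atp6v0c in the 3 libraries. In the knockout the ratio was 1.14, 1.13 and 1.24. This ratio within a library does not depend on the scaling, but it carries the uncertainty of Atp6v0c given above. If the reads listed under Atp6v0c-ps2 came from Atp6v0c, the level of Atp6v0c would be higher than listed. TPM is corrected for length, so the size of this rise depends on the length of the pseudogene, which was not read. Whether the order would then still change was not tested. With the values as listed, Atp6v0b was the most abundant pump transcript in all 3 knockout libraries. Atp6v0a1 was the least abundant in all 6.

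**Figure D2:**
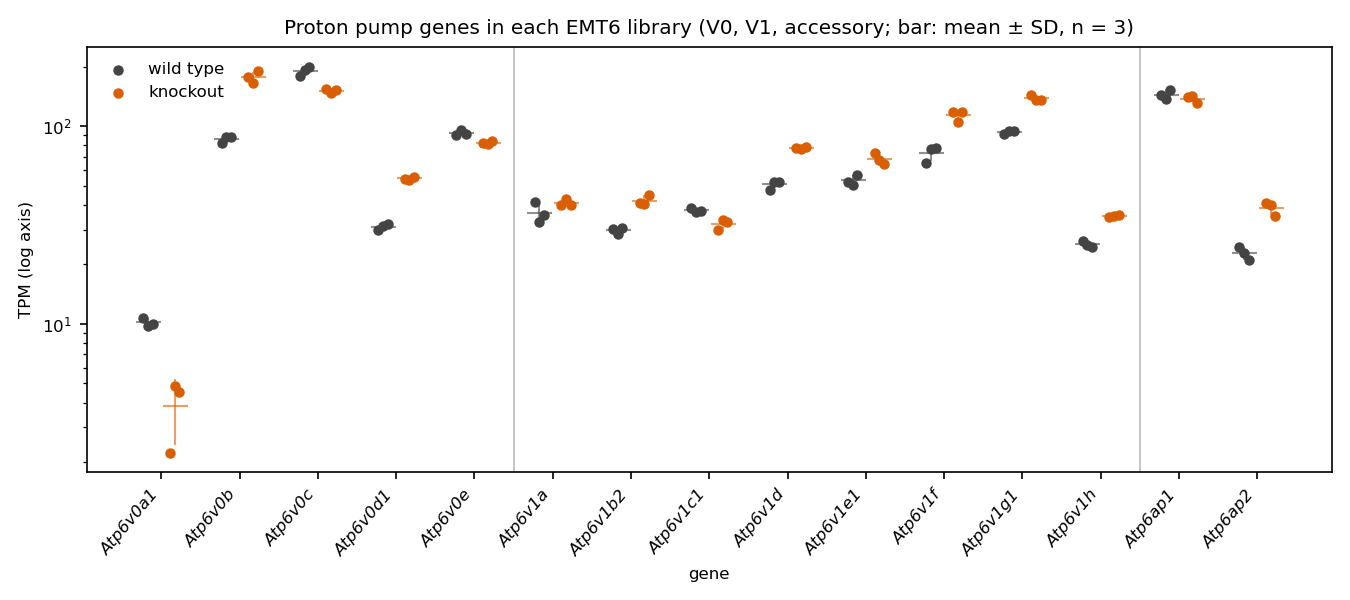
TPM (log axis) of the 15 pump genes in each library, with V0, V1 and accessory genes separated by vertical lines, and bars for the mean ± SD of 3 libraries. Atp6v0b passes Atp6v0c in the knockout as listed, without the reads listed under the pseudogene Atp6v0c-ps2. The V1 genes sit between 24.6 and 144 TPM.

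Subunit a is encoded by 4 paralogous genes. Tcirg1, the a3 paralog known from osteoclasts and macrophages, supplied 79.7 ± 5.88% of the summed TPM of the 4 paralogs in wild type and 86.2 ± 1.23% in the knockout (SD, n = 3 each). Its own level was 110, 127 and 136 TPM in wild type and 102, 110 and 95 TPM in knockout cells, a log2 fold change of -0.28 (adjusted p = 0.0453), and -0.03 under median-ratio scaling (adjusted p = 0.777). The call was kept in 2 of the 6 fits that left out 1 library, without wild-type replicate 1 or knockout replicate 2, and the adjusted p reached 0.125 in the others. Atp6v0a1 supplied 6.54 ± 0.625% and 3.27 ± 1.23%. Atp6v0a2 varied widely among wild-type libraries, at 27.9, 11.8 and 20.9 TPM, against 14.8, 10 and 10.1 TPM in the knockout, and was not called (log2 fold change -0.69, adjusted p = 0.114). The 4 paralogs summed to 156 ± 10.7 TPM in wild type and to 119 ± 7.6 TPM in the knockout. For the subunits d, e, B, C, E and G, the listed gene supplied nearly all of its family, and the lowest share was 98.9%, of Atp6v1g1 in wild type.

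**Figure D3:**
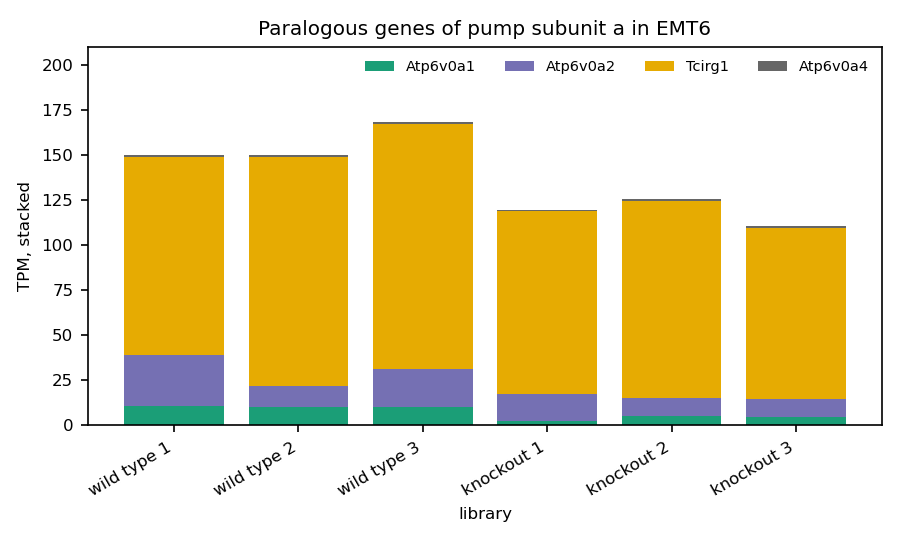
Stacked TPM of the 4 paralogous genes of subunit a in each library. Tcirg1 makes up most of every bar, and the 3 knockout bars are shorter than the 3 wild-type bars.

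The cytosolic sector V1 rose more evenly. Of its 8 genes, 6 were called higher, 1 was called lower and 1 was not called, with a median log2 fold change of 0.47. The shares over all tested genes were 14.5% higher and 42.3% lower. Among tested genes whose mean reached 20 TPM they were 24.8% and 37.1%. Atp6v1d, in the central rotor, was at 47.6, 52.6 and 52.5 TPM in wild type and at 78, 76.7 and 78.9 TPM in knockout cells (log2 fold change 0.61 ± 0.05 SE, adjusted p = 0.000468). Atp6v1g1, in the outer stalks, was at 91.7, 95.2 and 94.7 TPM in wild type and at 144, 136 and 136 TPM in the knockout (0.56 ± 0.04, adjusted p = 0.000298). Both genes were clearly separated between the genotypes. The other rises were those of Atp6v1f, a rotor subunit (0.62), the nucleotide-binding subunit Atp6v1b2 (0.49), the regulatory subunit Atp6v1h (0.46) and the stalk subunit Atp6v1e1 (0.36), with adjusted p from 0.00064 to 0.00634.

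The catalytic subunit was not called in TPM, and subunit C was called lower. Atp6v1a, which holds the site of ATP hydrolysis, was at 41.2, 32.8 and 35.6 TPM in wild type and at 40.2, 42.8 and 40 TPM in the knockout. Its groups overlapped through the first wild-type library, and its log2 fold change of 0.17 was not called (adjusted p = 0.155). It was called higher under median-ratio scaling (0.41, adjusted p = 0.00731), after removal of the length trend (0.48, adjusted p = 0.00249) and without wild-type replicate 1 (0.26, adjusted p = 0.0223). Atp6v1c1, which clamps the 2 sectors together, was at 38.6, 36.9 and 37.5 TPM in wild type and at 30, 33.5 and 32.8 TPM in the knockout. Its log2 fold change of -0.22 (adjusted p = 0.0157) turned to 0.02 under median-ratio scaling and to 0.08 after removal of the length trend, neither of them called.

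Of the accessory proteins, Atp6ap2, also known as the prorenin receptor, rose from 22.8 ± 1.68 to 38.8 ± 3.14 TPM (log2 fold change 0.74 ± 0.08 SE, adjusted p = 0.00106). Atp6ap1, a glycoprotein of the V0 lumen, was at 143, 137 and 153 TPM in wild type and at 141, 142 and 131 TPM in the knockout, with overlapping groups (log2 fold change -0.06, adjusted p = 0.369). It was called higher under median-ratio scaling, at 0.18 (adjusted p = 0.0301). The 15 pump genes together summed to 955 to 1008 TPM in wild-type cells and 1173 to 1211 TPM in knockout cells.

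Among the hydrolases none was called lower. Of the 8 hydrolase genes, 5 were called higher and 3 were not called. Of the 3 other luminal genes 1 was called higher, and the median log2 fold change over the 11 was 0.20. Over all tested genes, 14.5% were called higher and 42.3% lower in TPM, and 27.1% and 24.7% under median-ratio scaling. Ctsl, a cysteine protease (chromosome 13, 64359337 to 64370890), was the most abundant of the 33 transcripts in wild type. It was at 464, 458 and 469 TPM there and at 604, 612 and 588 TPM in knockout cells (log2 fold change 0.37 ± 0.03 SE, adjusted p = 0.000501). Hexa, the alpha subunit of beta-hexosaminidase, was at 26.3, 28.7 and 30.5 TPM in wild type and at 42.6, 40.7 and 41.4 TPM in the knockout (0.53 ± 0.06, adjusted p = 0.00132). For both enzymes the knockout libraries lay above all wild-type libraries by more than the spread within a group.

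The cysteine protease Ctsz was at 63.4, 68.9 and 69.8 TPM in wild type and at 90.6, 86.9 and 87.4 TPM in knockout cells (log2 fold change 0.39, adjusted p = 0.00168). Ctsd, an aspartic protease, was at 135, 138 and 149 TPM in wild type and at 173, 165 and 167 TPM in the knockout (0.26, adjusted p = 0.00663). The overlapping gene model Gm49369 on the same strand shares 34.4% of the exon bases of Ctsd and was listed at 75.9 and 68.5 TPM, so the split of reads between the 2 is uncertain. Ctsa, a carboxypeptidase that also protects neuraminidase, had means of 65.6 and 73.1 TPM (0.15, adjusted p = 0.0429), and this call was kept in 2 of the 6 fits that left out 1 library, without wild-type replicate 1 or knockout replicate 3.

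Ctsb, Gaa and Neu1 were not called. Ctsb, a cysteine protease, was at 190, 192 and 188 TPM in wild type and at 182, 178 and 170 TPM in the knockout, lower in all 3 (log2 fold change -0.11, adjusted p = 0.0566). The sign turned under median-ratio scaling, where it was called higher at 0.14 (adjusted p = 0.0369), and after removal of the length trend, at 0.21 (adjusted p = 0.011). Gaa, the acid glucosidase that degrades glycogen, was at 10.7, 13.4 and 9.7 TPM in wild type and at 14.1, 13 and 16.8 TPM in the knockout, with overlap (0.36, adjusted p = 0.074). Neu1, the lysosomal sialidase, was at 6.38, 6.42 and 8.18 TPM and at 7.1, 6.32 and 7.2 TPM (-0.02, adjusted p = 0.907). Gaa reached a call with wild-type replicate 2 left out (0.48, adjusted p = 0.0288) and was called higher under median-ratio scaling (0.58, adjusted p = 0.0206), and Neu1 was at 0.20 there without a call.

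Of the 3 luminal proteins without catalytic activity, Npc2 was called. Psap, the precursor of the saposins that present lipids to hydrolases, was at 262, 275 and 292 TPM in wild type and at 291, 287 and 290 TPM in the knockout. Grn, the precursor of the granulins, was at 172, 179 and 196 TPM in wild type and at 175, 172 and 182 TPM in the knockout. The groups of both genes overlapped, with log2 fold changes of 0.07 (adjusted p = 0.28) and -0.05 (adjusted p = 0.508), and both were called higher under median-ratio scaling, at 0.31 and 0.20. Npc2, which hands cholesterol to the membrane carrier Npc1, rose from 88.1 ± 3.25 to 101 ± 0.817 TPM (log2 fold change 0.20, adjusted p = 0.00804). The 11 luminal genes summed to 1483 to 1567 TPM in wild-type cells and 1721 to 1754 TPM in knockout cells, and Ctsl alone held 30 to 31.3% and 34.2 to 35.3% of these sums.

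**Figure D4:**
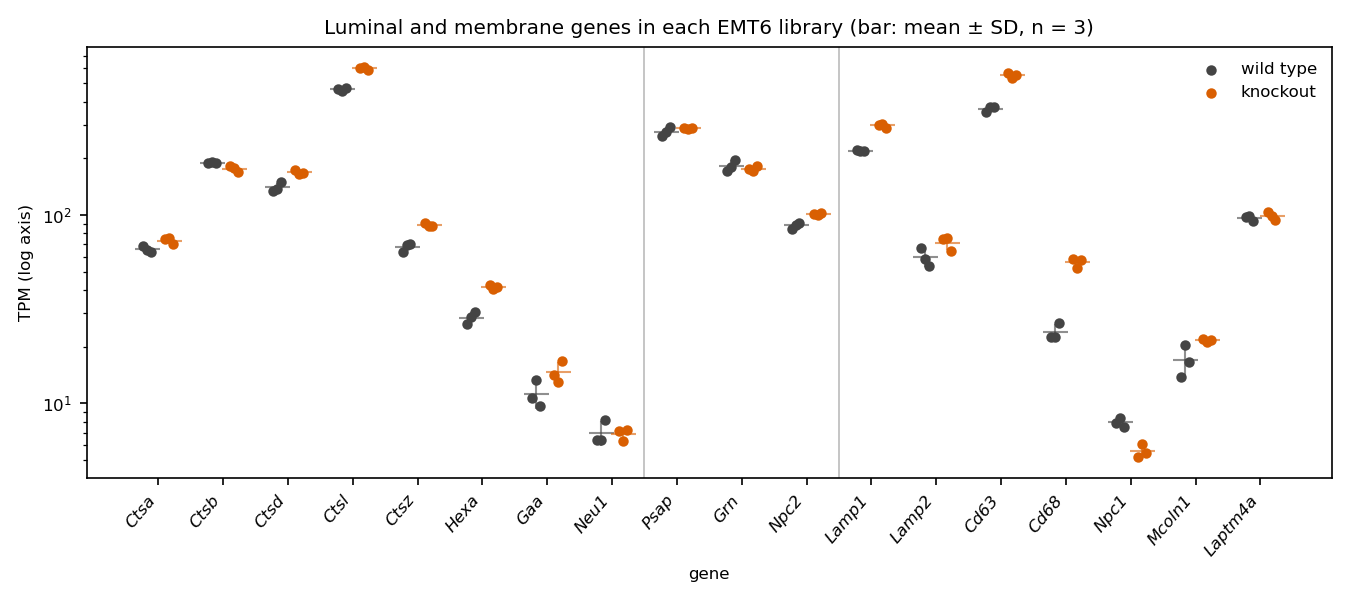
TPM (log axis) of the hydrolases, the 3 other luminal proteins and the membrane proteins in each library, with bars for the mean ± SD of 3 libraries. Cd68 shows the widest gap between the groups, with 22.5 to 26.7 TPM in wild type and 52.5 to 58.3 TPM in the knockout, and Npc1 is the gene called lower.

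The membrane proteins held the largest rise among the 33 genes. Cd68, a heavily glycosylated protein that is abundant in macrophage lysosomes (chromosome 11, 69664213 to 69666153), was at 22.5, 22.5 and 26.7 TPM in wild type and at 58.3, 52.5 and 57.5 TPM in the knockout. Its log2 fold change was 1.20 ± 0.08 (SE; adjusted p = 0.000265), and 1.44 and 1.05 in the other 2 settings. Cd63, a tetraspanin of late endosomes, was at 351, 375 and 374 TPM in wild type and at 569, 535 and 553 TPM in the knockout (0.59 ± 0.04, adjusted p = 0.000327). Lamp1, a major glycoprotein of the lysosomal membrane, was at 222, 218 and 219 TPM in wild type and at 301, 304 and 290 TPM in the knockout (0.44 ± 0.03, adjusted p = 0.000348). In each of the 3 the groups were well separated.

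Because Cd68 also marks macrophages, 18 leukocyte and macrophage markers were read beside it. Adgre1, Tyrobp, C1qa, C1qb and Nkg7 were listed at 0 in all 6 libraries, and 16 of the 18 stayed under 1 TPM in all of them. The list summed to 27.9 to 28.3 TPM in wild type and from 28.8 to 31 TPM in the knockout, most of it Cd14, at 25.3 and 23.7 TPM. Coro1a was at 2.29, 2.15 and 2.08 TPM in wild type and at 5.2, 5.27 and 4.95 TPM in knockout cells (log2 fold change 0.95, adjusted p = 0.000253). Lyz2 was at 0.0164 and 0.413 TPM, below the filter. Their part in the values of Cd68 was not tested.

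Npc1, the membrane carrier that exports cholesterol, was the membrane gene called lower. It was at 7.86, 8.4 and 7.5 TPM in wild type and at 5.16, 6.05 and 5.45 TPM in knockout cells (log2 fold change -0.45 ± 0.08 SE, adjusted p = 0.00472). Under median-ratio scaling it stayed lower (-0.23, adjusted p = 0.0433), but after removal of the length trend it was at -0.005 (adjusted p = 0.964), and its 11317 bases of exons are the most among the 33 genes. Rmc1 on the opposite strand shares 4.52% of these bases and stood at 31 and 30.8 TPM. The strand setting of the counting is not given in the sources used here.

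Lamp2, Mcoln1 and Laptm4a were not called in TPM. Lamp2, which also serves chaperone-mediated autophagy, was at 66.9, 58.4 and 53.3 TPM in wild type and at 74.5, 75.7 and 64 TPM in knockout cells (log2 fold change 0.26, adjusted p = 0.0763). Mcoln1, a calcium channel, was at 13.8, 20.5 and 16.6 TPM and at 22.1, 21.3 and 21.6 TPM (0.35, adjusted p = 0.0664). Laptm4a, a small membrane protein, was at 97.5, 98.9 and 92.6 TPM and at 104, 99.3 and 94.1 TPM (0.04, adjusted p = 0.53). With wild-type replicate 1 left out Lamp2 was called higher (adjusted p = 0.0315), as it was with knockout replicate 3 left out (adjusted p = 0.0468), and Mcoln1 was called without wild-type replicate 2 (adjusted p = 0.0106). All 3 were called higher under median-ratio scaling, at 0.50, 0.58 and 0.29, and Lamp2 and Mcoln1 also after removal of the length trend, at 0.67 and 0.71, where Laptm4a was at -0.02. The 7 membrane genes summed to 781 to 802 TPM in wild-type cells and 1086 to 1134 TPM in knockout cells, and Cd63 held 44.9 to 47.4% and 48.9 to 50.9% of these sums.

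A further 110 genes of lysosome biology were read from 6 lists. Of the 95 that passed the filter, 20 were called higher (21.1%) and 35 lower (36.8%), against 14.5% and 42.3% of all tested genes. The median log2 fold change was -0.13. The lower calls include Igf2r, Slc15a3 and Slc38a9, which passed the filter only through their wild-type libraries. The balance turned under median-ratio scaling, to 33 higher (35.1%) and 21 lower (22.3%) of 94 with a median of 0.11. The shares of all tested genes moved as well, to 27.1% and 24.7%. After removal of the length trend 33 were higher (34.7%) and 16 lower (16.8%) of 95 with a median of 0.07, against 23.2% and 26.6%. Among the 35 of these genes whose mean reached 20 TPM, 14 were higher (40%) and 10 lower (28.6%) in TPM. All tested genes at that level had 24.8% and 37.1%. Under median-ratio scaling 21 of the 35 were higher (60%) and 3 lower (8.57%), against 46.2% and 18.2%. With the length trend removed 19 were higher (54.3%) and 4 lower (11.4%), against 36.0% and 24.9%. Other hydrolases had 11 higher and 6 lower of 34, with a median of -0.04. Under median-ratio scaling they had 15 higher and 4 lower (median 0.20), and after removal of the length trend 16 higher and 5 lower (median 0.16). Aga, which cleaves glycosylated asparagine, rose from 17.6 ± 0.97 to 32.9 ± 0.814 TPM (0.87, adjusted p = 0.000214). Gla, an alpha-galactosidase, rose by 0.66, while the thioesterase Ppt2 (-1.18), the acid phosphatase Acp2 (-0.81) and the galactosylceramidase Galc (-0.73) fell.

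Other membrane proteins and transporters had 1 higher (4.76%) and 13 lower (61.9%) of 21, against 14.5% and 42.3% of all tested genes. Their median was -0.39. Slc15a3 and Slc38a9, named after their values were seen, passed the filter only through their wild-type libraries. The direction of these lower calls was largely set by the filter. Tmem192 rose from 20.3 ± 0.322 to 34.6 ± 1.85 TPM (0.74, adjusted p = 0.000313). The chloride-proton exchanger Clcn7 (-0.72), the cation channel Tpcn1 (-0.51) and Cln3 (-0.39) were lower. Under median-ratio scaling this list had 2 higher (10%) and 7 lower (35%) of 20, against 27.1% and 24.7% of all tested genes. Cln3 was not called there (-0.15, adjusted p = 0.058). With the length trend removed the list had 4 higher and 4 lower of 21 (19.0% each), against 23.2% and 26.6% of all tested genes. In that setting Tpcn1 was at -0.13 (adjusted p = 0.0783) and Cln3 at -0.08 (adjusted p = 0.307).

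Of 5 tested other subunits, 4 were lower (80%) and 0 higher, against 42.3% and 14.5% of all tested genes. Besides Tcirg1 these were Atp6v0a4, Atp6v0e2 and Atp6v1g2, at 1.25, 0.915 and 1.04 TPM in wild type, which were named after their values were seen. Under median-ratio scaling 2 of the 5 were lower (40%), without Tcirg1 and Atp6v0a4, against 24.7% of all tested genes. Of 9 tested genes for assembly factors and other proteins linked to the pump, 1 was higher (11.1%) and 3 lower (33.3%). The shares of all tested genes were 14.5% and 42.3%. Under median-ratio scaling 4 were higher (44.4%) and 2 lower (22.2%), against 27.1% and 24.7%. Vma21, a chaperone of V0 assembly, rose from 19.6 ± 0.187 to 26.9 ± 0.858 TPM (0.44, adjusted p = 0.000833), and Oxr1 was lower (-0.66, adjusted p = 0.0183) but not called under median-ratio scaling (-0.43, adjusted p = 0.0647), without wild-type replicate 3 (adjusted p = 0.0538) or without knockout replicate 1 (adjusted p = 0.0573).

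Genes that sort hydrolases to the lysosome had 1 higher (9.09%) and 4 lower (36.4%) of 11, against 14.5% and 42.3% of all tested genes. Under median-ratio scaling 4 were higher (36.4%) and 3 lower (27.3%), against 27.1% and 24.7%. Igf2r, the large mannose 6-phosphate receptor, was named after its values were seen. It was at 3, 2.65 and 2.77 TPM in wild type and at 0.258, 0.218 and 0.208 TPM in the knockout (-1.63). It passed the filter only through its wild-type libraries, so the direction of its call was largely set by the filter. The call is a description and no test. The small receptor M6pr was at 58.7 and 53.2 TPM, and its log2 fold change of -0.14 (adjusted p = 0.0352) turned to 0.10 under median-ratio scaling and was called in 1 of the 6 fits that left out 1 library, that without wild-type replicate 3. Gnptab, whose product adds the mannose 6-phosphate tag, fell from 15.2 ± 2.83 to 7.38 ± 0.891 TPM (-0.94, adjusted p = 0.00301). Of the adaptors that bind the receptors, Gga3 fell (-0.79) and Gga2 rose (0.74).

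Of the transcription factors named above, Tfe3 and Mitf were called lower in TPM. Tfe3 was at 33.9, 32.4 and 31.5 TPM in wild type and at 25.1, 23.9 and 23.3 TPM in the knockout (-0.42, adjusted p = 0.00144). It stayed lower under median-ratio scaling (-0.18, adjusted p = 0.033) but was at -0.02 after removal of the length trend (adjusted p = 0.785). Named after their values were seen, Mitf was lower (-0.65, adjusted p = 0.00527) and Tfeb was not called, at 3.88 and 3.11 TPM (-0.23, adjusted p = 0.215). Of the 15 tested genes of this list, which also holds the mTORC1 scaffold on the lysosome, 6 were higher (40%) and 5 lower (33.3%). The shares of all tested genes were 14.5% and 42.3%. Under median-ratio scaling 8 were higher (53.3%) and 3 lower (20%), against 27.1% and 24.7%. The scaffold subunits Lamtor4 (0.71), Lamtor1 (0.43) and Lamtor2 (0.38) rose. The remaining scaffold subunits, named after their values were seen, were Lamtor3, called lower in TPM (-0.23, adjusted p = 0.00906) but at 0.01 under median-ratio scaling, and Lamtor5, not called in TPM (-0.02, adjusted p = 0.765). Lamtor5 was called higher under median-ratio scaling (0.23) and lower after removal of the length trend (-0.24). Of the kinase complex itself, Rptor (-0.48) and Mtor (-0.36) were lower in TPM. Mtor was not called under median-ratio scaling (-0.13), and the 2 genes were at -0.01 and 0.06 after removal of the length trend.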

How the data were processed

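RNA from 3 wild-type and 3 PFKFB4-knockout EMT6 libraries was analysed. The authors deposited TPM per gene, scaled so that each library sums to the same total. CASAVA 1.8.2, TopHat2 2.1.1, Subread 1.6.4, featureCounts and the build mm10 are named in the submitters' processing notes. For their settings, annotation and strand nothing is given in the sources used here, and read depth is unknown. The 3 columns coded A7 were taken as the knockout because the other 3 are named wild type. Gene symbols, coordinates and exon lengths were read from GENCODE M21 (GRCm38), with a symbol for 54097 of 54331 identifiers, and promoters from RefSeq (GRCm38.p6).

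Differences were fitted on log2(TPM + 1) by limma 3.58.1 (R 4.3.3), without covariates and with variance moderated along the mean. Genes entered when 3 or more of the 6 libraries reached 0.5 TPM. P-values were adjusted by the Benjamini-Hochberg method over all tested genes, with calls at 0.05. Fold changes on this scale understate the change of low genes. The test was checked on simulated data with 200 changed genes among 13499, far fewer than were called here. It recovered 46% of 1.5-fold and 88% of 2-fold changes there, and 14 of its 173 calls were false.

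Members and lists were chosen with earlier results of these data known. Values in every library are given for up to 4 called members per class and direction by smallest adjusted p, and for members whose call or sign differed under median-ratio scaling. Of the other lists, up to 3 called genes per direction with at least 5 TPM in the higher group are named. A gene that this rule picks is not reported here. Alternatives were limma without a trend, median-ratio scaling, no filter, a filter of 1 TPM, a pseudocount of 0.1, a replicate block, removal of the exon-length trend (lowess on protein-coding genes, span 0.3), omission of the 10 most abundant genes and of each library. The shares among genes of at least 20 TPM, the chromosome and neighbour values and the overlap of gene models were added after seeing the data. Plots and tables used Python 3.11.15.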

Additional observations from a re-analysis of the deposited data

How the results depend on the processing

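Median-ratio scaling moved the genes called lower from 5 to 2 and the pump genes called lower from 4 to 1, and moved the luminal genes called higher from 6 to 10 and the membrane genes called higher from 3 to 6. Removal of the length trend gave 2 genes called lower, 2 pump genes lower, 5 membrane genes higher and 0 membrane genes lower, where TPM gave 1. With the replicate number as a block, 3 genes and 2 pump genes were called lower and 18 genes higher. The numbers do not pair the libraries by the data, since deviations of same-numbered libraries correlated at 0.0647, -0.0175 and 0.0728 and not every library correlated best with its own number. The genes not called went from 10 to 4 under median-ratio scaling, with 5 to 1 among luminal and 3 to 0 among membrane genes, and with the length trend removed from 5 to 2 among luminal genes. The other counts of genes called higher or lower over the 33 genes and their 3 classes stayed within 1.5 times, and none of the 33 genes was called in both directions across the settings run. With 1 library left out, 17 to 20 genes were called higher and 4 to 5 lower.

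Signs turned under median-ratio scaling for Atp6v0e (0.084), Atp6v1c1 (0.017), Atp6ap1 (0.18), Ctsb (0.14), Neu1 (0.20), Grn (0.20) and M6pr (0.10), and with the length trend removed for Atp6v0e (0.031), Atp6v1c1 (0.077), Atp6ap1 (0.064), Ctsb (0.21), Neu1 (0.18), Grn (0.12), Laptm4a (-0.017), M6pr (0.084) and Mtor (0.057). With 1 library left out, Neu1 ran from -0.070 to 0.087 and Grn from -0.089 to 0.00447. Calls of Ctsa, Tcirg1, M6pr and Atp6v0e were lost in 4, 4, 5 and 3 of these 6 fits, that of Atp6v0e without wild-type replicate 2 or knockout replicates 1 or 2, and with the block those of Ctsa (adjusted p = 0.0656), Atp6v0e (0.0629) and Atp6v1c1 (0.0554). The cause of these shifts was not tested. TPM holds no depth, so the counting error of the low genes is unknown.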

Other observations

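Of the 33 genes, 3 lie on chromosome 17, where 61.1% of 692 tested genes were called lower, against 42.3% of all tested genes. Of the 20 nearest tested neighbours, 17 were lower around Atp6v0c (median log2 fold change -0.84), 14 around Atp6v0e (-0.65) and 15 around Neu1 (-0.55). The 3 genes themselves were at -0.33, -0.16 and -0.02. On chromosomes 4 and 8, 24.6% of tested genes were called higher. Of the 6 listed genes there, Atp6v0b, Atp6v1g1, Atp6v0d1, Atp6v1b2 and Lamp1 were called higher and Mcoln1 was not. Their neighbours had medians from -0.30 around Atp6v1g1 to 0.13 around Atp6v0b. The part of position in these differences was not tested.

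Endothelial markers were close to absent, with all 6 under 1 TPM in every library.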
